A study of Mus musculus with 6 samples.

Results

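The 10 genes described here are Pdcd1, Ctla4, Lag3, Havcr2, Tigit, Cd160, Btla, Cd5 and Cd200r1, which encode receptors that restrain T cells, and Tox, which encodes a transcription factor of T cell exhaustion. They were taken by gene name from the deposited table, where each name has exactly 1 row among 54532 genes. All 10 passed the filter on low counts and were tested. By the paper's account, the RNA came from mouse splenic CD8T cells stimulated with beads against CD3 and CD28. These had been cocultured for 24 hr with macrophages primed by interferon-γ (10 ng/mL for 12 hr). Marker genes of macrophages and other cells were also counted in these libraries, as given below. Macrophages of the control group had not received DB2313. Those of the DB2313 group had been exposed to 14 nM of this compound, which blocks Spi1 (PU.1), a transcription factor of myeloid cells. Each group held 3 RNA-seq libraries, and whether these came from separate cultures is not given in the sources used here, so p-values measure the spread between these samples, which may be technical. The labels name primary T cells cocultured with DC cells in place of CD8T cells and macrophages. Strain and age of the donor mice are not given in the sources used here.

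Inhibitory receptors are brakes on T cell activation. PD-1, encoded by Pdcd1, and the receptors encoded by Tigit and Btla carry tyrosine motifs in their tails that recruit phosphatases to the T cell receptor, whereas the receptor encoded by Ctla4 takes the ligands Cd80 and Cd86 away from the costimulatory receptor Cd28. Several of these receptors are induced when a T cell is activated and stay high in T cells that are stimulated over a long time, a state called exhaustion that depends on Tox. Not all are restricted to T cells. For example, Havcr2 (which encodes TIM-3) and Cd200r1 are also expressed by macrophages and dendritic cells, and Btla by B cells.

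The libraries held 16611975 to 18596217 counts on genes. None of 19 T cell marker genes was at 0 in all libraries. The same held for 20 macrophage marker genes, so RNA of other cells was counted as well. The 19 T cell markers summed to 3265 to 3307 CPM (counts scaled per 1e6 mapped counts, with TMM library factors) in the control libraries and 4938 to 4989 CPM in the DB2313 libraries. The 20 macrophage markers summed to 15150 to 15530 CPM and 5750 to 5908 CPM. All 19 T cell markers rose (median log2 fold change 0.59), from Cd3e at 0.32 to Cd3d at 0.74, and all 20 macrophage markers fell (median -1.18), from Cd68 at -0.52 to Mertk at -2.16. Trbc2 was the most abundant T cell marker per kilobase (log2 fold change 0.54) and Lyz2 the most abundant macrophage marker (-1.89). In RNA of mixed cells, more cells of a type and more RNA per cell cannot be told apart. For this reason each checkpoint gene is given both on the TMM scale and relative to the T cell markers of the same library.

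On the TMM scale, 6 of the 10 genes rose in the DB2313 group (Pdcd1, Tigit, Ctla4, Tox, Cd5 and Lag3), 2 fell (Cd200r1 and Havcr2) and 2 did not pass the test (Cd160 and Btla), whereas with libraries scaled to the T cell markers Pdcd1 alone rose and 5 genes fell. The test was edgeR's quasi-likelihood test at an adjusted p below 0.05 over 14883 genes, of which 20.8% were called higher and 24.6% lower with TMM scaling. When scaled to the T cell markers, 1.08% of the same genes were called higher and 77.7% lower, so that the share of the 10 genes that fell was below the share of all genes. The median log2 fold change of the 10 genes was 0.41, beside 0.02 for all tested genes. None of the 10 passed an added threshold of 1 on the absolute log2 fold change, which 1.37% of the tested genes passed upward and 5.3% downward. No DB2313 library overlapped the control range in 5 of the 6 higher genes and in both lower genes, which was the case for 25.6% of tested genes upward and 27.5% downward, or 53.1% in either direction. Summed over the 10 genes, the level was 306.1 to 313.0 CPM in the control libraries and 354.8 to 363.1 CPM in the DB2313 libraries.

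**Figure D1:**
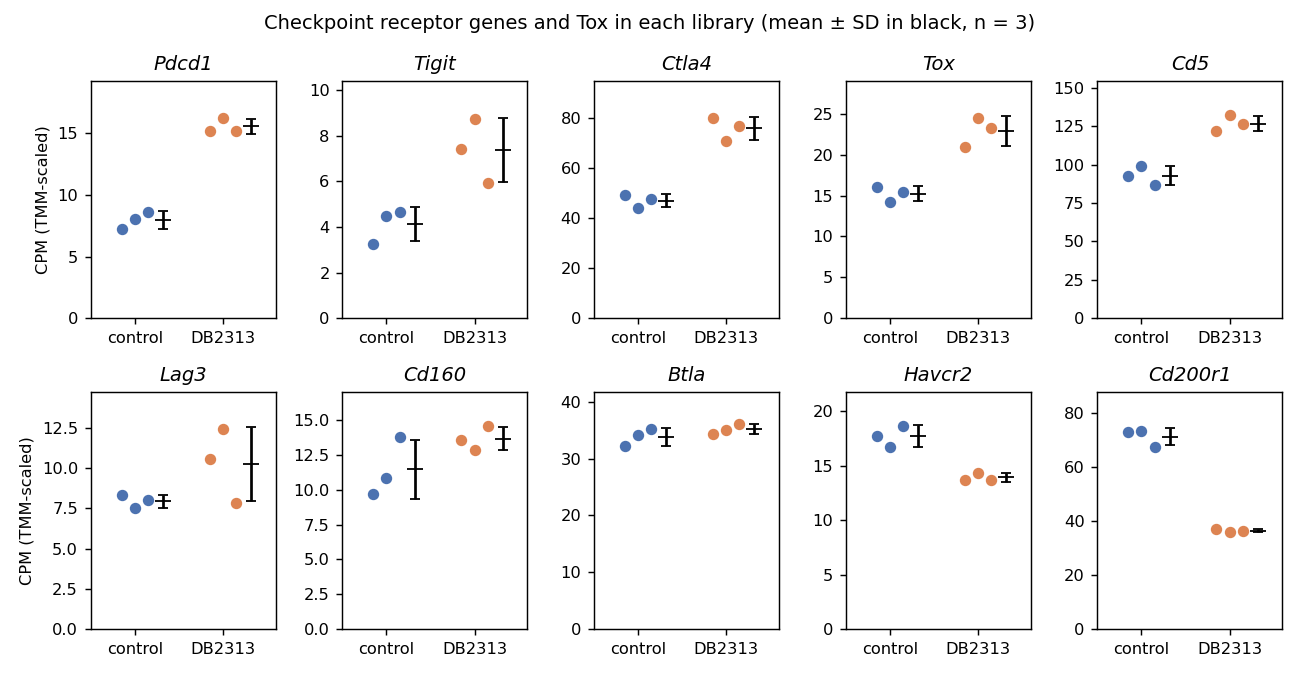
TMM-scaled CPM (vertical axis) of the 10 genes in each of the 3 control (blue) and 3 DB2313 (orange) libraries, with mean and SD in black. Pdcd1, Tigit, Ctla4, Tox and Cd5 lay higher in every DB2313 library and Havcr2 and Cd200r1 lower, while Lag3, Cd160 and Btla overlapped; relative to the T cell markers, Pdcd1 alone was higher in every DB2313 library, and Tigit, Ctla4, Tox and Cd5 overlapped.

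Pdcd1 (ENSMUSG00000026285, chromosome 1 from 94038305 to 94052553, minus strand) had the largest rise. Its counts were 130, 139 and 141 (control) and 281, 278 and 280 (DB2313), or 7.20, 8.09 and 8.61 CPM against 15.2, 16.3 and 15.2 CPM. The lowest DB2313 library was thus well above the highest control library. This gave a log2 fold change of 0.97 (standard error 0.11, 95% interval 0.73 to 1.2, adjusted p = 1.65e-07, edgeR), a 1.96-fold rise. It exceeded the change of each of the 19 T cell markers. With libraries scaled to those markers the change was 0.37 on the log2 scale (standard error 0.11, adjusted p = 0.00456, edgeR), so Pdcd1 rose under each scaling that was run. Which cells this rise came from was not tested.

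Tigit (ENSMUSG00000071552, chromosome 16 from 43648867 to 43664146, minus strand) encodes a receptor for Pvr and Nectin2. Its level was 3.27, 4.48 and 4.64 CPM in the control group and 7.42, 8.73 and 5.92 CPM in the DB2313 group. The groups did not overlap, but with 59 to 149 counts per library Tigit was the least counted of the genes and its SD was 18.2% of the control mean and 19.1% of the DB2313 mean. Tigit rose by 0.83 on the log2 scale (standard error 0.18, 95% interval 0.46 to 1.21, adjusted p = 0.000567, edgeR). Scaled to the T cell markers it was 0.24 (standard error 0.18, adjusted p = 0.230, edgeR), which did not pass the test.

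Ctla4 (ENSMUSG00000026011, chromosome 1 from 60887000 to 60915832, plus strand) was at 49.1, 44.1 and 47.5 CPM in the control libraries and 80.2, 70.8 and 76.7 CPM in the DB2313 libraries. All DB2313 libraries were above all control libraries. Ctla4 rose by 0.69 on the log2 scale (standard error 0.06, 95% interval 0.57 to 0.82, adjusted p = 9.79e-10, edgeR), a 1.62-fold rise that lay above 16 of the 19 T cell markers. Scaled to those markers the change was 0.10 (standard error 0.06, adjusted p = 0.131, edgeR).

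Tox (ENSMUSG00000041272, chromosome 4 from 6686353 to 6991557, minus strand) was at 16.1, 14.3 and 15.4 CPM in the control group and 20.9, 24.4 and 23.3 CPM in the DB2313 group, again without overlap. Its log2 fold change of 0.58 (standard error 0.09, adjusted p = 1.36e-05, edgeR) was close to the median of the T cell markers, and scaled to them it was -0.0088 (standard error 0.09, adjusted p = 0.935, edgeR). Cd5, a receptor that dampens T cell receptor signalling and is itself widely used as a marker of T cells, had the highest level per kilobase of the 10 genes (ENSMUSG00000024669, chromosome 19 from 10718143 to 10738974, minus strand). Its level was 92.6, 99.3 and 86.5 CPM in the control libraries and 121.9, 132.0 and 126.2 CPM in the DB2313 libraries, so that the groups were separate. Cd5 changed by 0.45 on the log2 scale (standard error 0.05, adjusted p = 3.81e-08, edgeR) with TMM scaling, but -0.15 (standard error 0.05, adjusted p = 0.00971, edgeR) when scaled to the T cell markers.

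Lag3, whose product binds MHC class II, lies on chromosome 6 from 124904361 to 124911705 on the minus strand (ENSMUSG00000030124). It was at 8.31, 7.51 and 8.0 CPM in the control group and 10.6, 12.4 and 7.83 CPM in the DB2313 group. DB2313 replicate 3 lay within the control range, and the other two DB2313 libraries were above it. The log2 fold change of 0.37 (standard error 0.15, adjusted p = 0.0456, edgeR) was just past the threshold and turned to -0.23 (standard error 0.15, adjusted p = 0.159, edgeR) when scaled to the T cell markers. It also did not pass with DESeq2 (adjusted p = 0.124), with the replicate number as a block (adjusted p = 0.0551, edgeR) or in 5 of 6 refits with a single library removed, where the log2 fold change ranged from 0.21 without DB2313 replicate 2 to 0.53 without DB2313 replicate 3.

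Cd160 and Btla both bind Tnfrsf14, and neither passed the test with TMM scaling. Cd160 (ENSMUSG00000038304, chromosome 3 from 96798763 to 96829351, minus strand) was at 9.70, 10.9 and 13.8 CPM in the control group and 13.6, 12.9 and 14.6 CPM in the DB2313 group. Control replicate 3 overlapped the DB2313 libraries. Its log2 fold change was 0.26 (95% interval 0.0065 to 0.51, adjusted p = 0.0884, edgeR). It was 0.15 without control replicate 1 (adjusted p = 0.374, edgeR), and it passed at 0.42 without control replicate 3 (adjusted p = 0.00974, edgeR), at 0.36 with library size scaling (adjusted p = 0.0183, edgeR) and at 0.32 with upper quartile scaling (adjusted p = 0.0331, edgeR). Scaled to the T cell markers it was -0.33 (standard error 0.12, adjusted p = 0.0162, edgeR). The markers of NK cells, which also express Cd160, summed to 39.1 to 43.8 CPM in the control libraries and 47.1 to 52.3 CPM in the DB2313 libraries. With TMM scaling 4 of 5 tested genes were higher and 0 lower, beside 20.8% and 24.6% of all tested genes. Scaled to the T cell markers 0 were higher and 1 was lower, beside 1.08% and 77.7%. None of the 7 listed genes was at 0 in all libraries. The part of NK cells in the result was not tested.

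Btla (ENSMUSG00000052013, chromosome 16 from 45224315 to 45257670, plus strand) was at 32.1, 34.2 and 35.2 CPM in the control libraries and 34.4, 35 and 36.1 CPM in the DB2313 libraries. Control replicate 3 lay within the DB2313 range, and the other two control libraries were below it. With TMM scaling its log2 fold change was 0.06 with a 95% interval from -0.08 to 0.20 (adjusted p = 0.530, edgeR), which leaves out a rise as large as that of the T cell marker median. Scaled to the T cell markers it was -0.54 (standard error 0.07, adjusted p = 1.36e-07, edgeR), beside a median of -0.57 for all tested genes. B cells and dendritic cells also express Btla. B cell markers summed to 52.1 to 55.1 CPM and 76.4 to 79.2 CPM, and none of 10 was at 0 in all libraries. With TMM scaling 6 of 9 tested B cell genes were higher and 0 lower, beside 20.8% and 24.6% of all tested genes. Scaled to the T cell markers 1 was higher and 2 were lower, beside 1.08% and 77.7%. The markers of dendritic cells summed to 857.6 to 876.1 CPM and 708.9 to 733.6 CPM, with the plasmacytoid marker Siglech at 0. With TMM scaling 2 of 9 tested dendritic cell genes were higher and 6 lower, and scaled to the T cell markers 1 was higher and 8 were lower. The part of B cells and dendritic cells in the result for Btla was not tested.

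Cd200r1 (ENSMUSG00000022667, chromosome 16 from 44765736 to 44794978, plus strand), the receptor of the glycoprotein Cd200, fell most. Its counts were 1318, 1263 and 1108 (control) and 684, 616 and 670 (DB2313), or 73.0, 73.5 and 67.7 CPM against 37.0, 36.1 and 36.4 CPM. The DB2313 libraries lay far below the control libraries and within 1.3% (SD) of their mean. Cd200r1 changed by -0.97 on the log2 scale (standard error 0.06, 95% interval -1.09 to -0.85, adjusted p = 1.57e-12, edgeR), and -1.56 (standard error 0.06) when scaled to the T cell markers. Its neighbours and paralogs Cd200r2, Cd200r3 and Cd200r4, which encode activating relatives, were lower as well, with log2 fold changes of -1.36, -0.38 and -1.09 (standard errors 0.40, 0.07 and 0.08). Reads of Cd200r1 and these paralogs could have been shared, so the division among them is uncertain.

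Havcr2 (ENSMUSG00000020399, chromosome 11 from 46454935 to 46481255, plus strand) fell by less. Its level was 17.7, 16.8 and 18.7 CPM in the control group and 13.7, 14.4 and 13.7 CPM in the DB2313 group. The groups did not overlap. With TMM scaling the change was -0.35 on the log2 scale (standard error 0.09, 95% interval -0.55 to -0.15, adjusted p = 0.0042, edgeR), and -0.94 (standard error 0.09) when scaled to the T cell markers. Beside these 2 falls, the summed macrophage markers were lower in every DB2313 library, with 20 of 20 genes lower and none at 0 in all libraries. The fall of Cd200r1 was smaller than the macrophage median by 0.21 on the log2 scale and that of Havcr2 by 0.83. Mast cells and basophils also express Cd200r1, and their markers summed to 1226 to 1243 CPM in the control libraries and 1000 to 1028 CPM in the DB2313 libraries. With TMM scaling 4 of 9 tested genes were higher and 3 lower, beside 20.8% and 24.6% of all tested genes. The changes ran from Mcpt8 at 0.52 to Tpsb2 at -5.40, and none of 10 was at 0 in all libraries. Scaled to the T cell markers 0 were higher and 7 lower, beside 1.08% and 77.7% of all tested genes. Mcpt8 was at -0.07 when scaled to the T cell markers, and Cpa3, the most abundant per kilobase, was at -1.31 with TMM scaling. The part of these cells in the results was not tested.

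**Figure D2:**
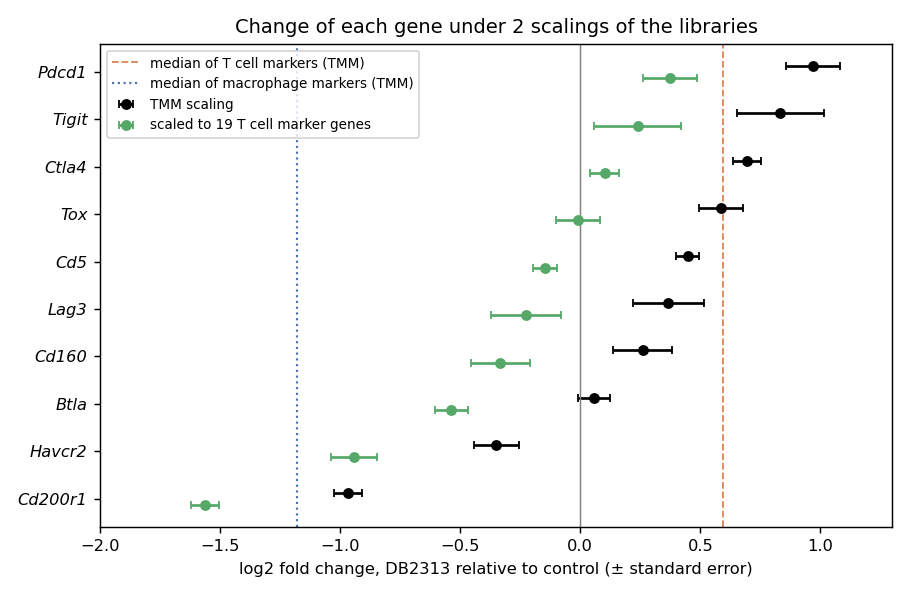
Log2 fold change of each gene, DB2313 relative to control (horizontal axis, bars are standard errors), with TMM scaling (black) and with libraries scaled to 19 T cell marker genes (green), beside the medians of the T cell markers (dashed, 0.59) and the macrophage markers (dotted, -1.18). With the second scaling Lag3, Cd160, Btla, Cd5 and Tox turned below 0, and Pdcd1 remained at 0.37.

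Counts of each gene were divided by the summed T cell marker counts of the same library, a ratio that does not depend on how libraries are scaled to each other. Pdcd1 alone was higher in every DB2313 library, with a difference in the log2 ratio of 0.38, or 1.298-fold. Btla, Havcr2 and Cd200r1 were lower in every DB2313 library, by differences of -0.54, -0.94 and -1.56. The other 6 genes overlapped between the groups, with differences from -0.32 in Cd160 to 0.24 in Tigit. Among all tested genes, 1.45% were higher without overlap by this ratio and 78.5% lower. For the 4 genes without overlap, the two-sided exact permutation test gave p = 0.1, the smallest that 3 against 3 libraries allow, and 0.3 after Benjamini-Hochberg adjustment over 12 ratios, so this test could not pass a threshold of 0.05. The median log2 fold change of all tested genes was -0.57 with scaling to the T cell markers. The falls of Btla, at -0.54, Cd160, at -0.33, and Cd5, at -0.15, were thus smaller than that of the median gene.

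**Figure D3:**
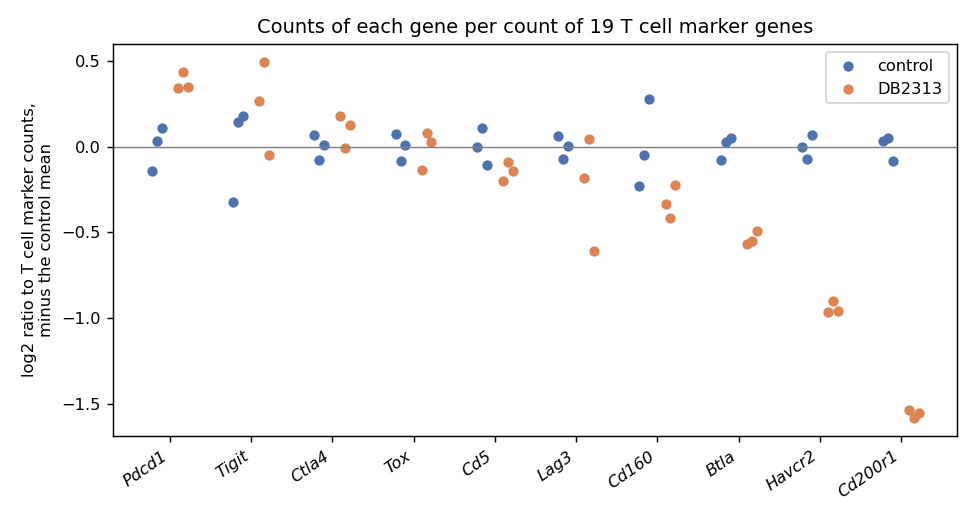
Log2 ratio of each gene's counts to the summed counts of 19 T cell markers in the same library, minus the mean of the control group (vertical axis), for 3 control (blue) and 3 DB2313 (orange) libraries. Pdcd1 was above and Btla, Havcr2 and Cd200r1 below the control libraries without overlap.

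Levels were compared between genes per kilobase of the gene length in the table (CPM per kilobase). In the control group Cd5 was highest at 44.8 ± 3.09 (SD, n = 3), followed by Cd200r1 at 21.3 ± 0.965 and Ctla4 at 20.1 ± 1.10, which overlapped each other. Btla at 9.97 ± 0.465 and Havcr2 at 6.52 ± 0.356 came next. Tigit, Cd160, Pdcd1 and Lag3 lay between 3.77 and 4.50, each overlapping its neighbour in this order, and Tox was lowest at 2.003 ± 0.121. In the DB2313 group Cd5 at 61.2 ± 2.45 and Ctla4 at 32.6 ± 2.04 were the highest levels, and Cd200r1 was now at 10.9 ± 0.141, above Btla at 10.4 ± 0.262 without overlap. Pdcd1 moved from rank 8 to rank 5, at 8.07 ± 0.322 beside Tigit at 8.01 ± 1.53, with which it overlapped. Havcr2 went from rank 5 to rank 8, at 5.12 ± 0.140, overlapping Cd160 and Lag3. The highest level was 22.4 times the lowest among control levels and 20.4 times among DB2313 levels.

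Some of the genes are neighbours in the genome. Ctla4 lies on chromosome 1 between Cd28 and Icos, which encode costimulatory receptors of the same family, 113.6 kb from Cd28 and 62.1 kb from Icos, and the log2 fold changes of Cd28 (0.63, standard error 0.04) and Icos (0.45, standard error 0.05) had the same sign as that of Ctla4, although that of Icos was -0.15 when scaled to the T cell markers. Cd200r1 and Btla lie 429.3 kb apart on chromosome 16, and with TMM scaling Cd200r1 fell while Btla did not pass the test. Annotated genes overlap 3 members (Rpl18-ps1 within Ctla4, Gm11802 within Tox and Pdzk1 at the end of Cd160), and each had at most 13 counts in a library.

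Promoter sequences from RefSeq (GRCm38.p6) were found for 7 of the 10 genes, and those of Pdcd1 and Havcr2 are shown because they are the gene with the largest rise and the lower gene whose promoter was in the table. Each is the 250 bases before the annotated start, 5′ to 3′ on the strand of the gene. Capitals mark GAGGAA, the core letters of PU.1 sites, and GGAAA, the core letters of NFAT sites, on either strand. In Pdcd1 the 2 matches of GGAAA, both on the other strand, lie next to each other and share no letters. The Pdcd1 sequence is chr1:94052554-94052803 on the minus strand and the Havcr2 sequence chr11:46454681-46454930 on the plus strand.
Pdcd1: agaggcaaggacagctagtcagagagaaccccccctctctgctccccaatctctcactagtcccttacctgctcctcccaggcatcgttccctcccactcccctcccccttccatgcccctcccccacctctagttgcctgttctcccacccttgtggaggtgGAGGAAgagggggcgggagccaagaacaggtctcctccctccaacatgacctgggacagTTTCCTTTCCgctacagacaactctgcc
Havcr2: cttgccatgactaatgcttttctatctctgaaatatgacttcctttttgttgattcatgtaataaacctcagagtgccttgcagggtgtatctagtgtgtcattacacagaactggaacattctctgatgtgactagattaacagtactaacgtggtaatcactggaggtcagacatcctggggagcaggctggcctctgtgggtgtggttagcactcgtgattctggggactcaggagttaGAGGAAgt
Pdcd1 held GGAAA 2 times and GAGGAA 1 time, and Havcr2 held GAGGAA 1 time, next to the start, and no GGAAA. Over 32851 promoters of the same length, 55.6% held GGAAA and 23.3% held GAGGAA, so matches of such short letters are common. TGACTCA, an AP-1 site that 4.46% of promoters held, was not in the window of either gene. These matches are descriptions of the letters and not of binding.

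The ligands were next examined, from a list of 19 genes that holds ligands of these receptors and of their costimulatory partners. Of 16 tested ligands, 2 rose and 11 fell with TMM scaling, at a median log2 fold change of -0.68, beside 20.8% and 24.6% of all tested genes. All 16 fell when scaled to the T cell markers, as did 77.7% of all tested genes. Pdcd1lg2, which encodes the PD-1 ligand PD-L2, was at 46.9, 40.6 and 41.9 CPM in the control libraries and 10.2, 10.8 and 11.5 CPM in the DB2313 libraries, a log2 fold change of -1.99 (standard error 0.09, adjusted p = 3.44e-15, edgeR). Cd274, which encodes the other ligand, PD-L1, had a higher level per kilobase (137.4 against 26.2 CPM per kilobase in the control group) and fell less, from 497.8 ± 13.3 to 391.8 ± 13.6 CPM (SD, n = 3 each), a log2 fold change of -0.35 (standard error 0.03). Pdcd1 thus rose while both of its ligand genes fell.

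For the receptor encoded by Ctla4, Cd86 fell with a log2 fold change of -0.64 (standard error 0.04), while Cd80 had levels of 92.4 ± 4.04 and 88.1 ± 3.05 CPM (SD, n = 3 each) and did not pass the test (adjusted p = 0.239, edgeR). The MHC class II genes H2-Aa, H2-Ab1 and H2-Eb1, which encode ligands of Lag3, fell with log2 fold changes of -1.66, -1.97 and -2.19. H2-Eb1 had both the largest fall and the highest level per kilobase of the ligand genes in the control group. Fgl1, another Lag3 ligand, was at 0 in all 6 libraries, which allows up to 1.81e-05% of the counts of the smallest library, a limit that covers counting error only.

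Tnfrsf14, the ligand of Btla and Cd160, fell from 86.2 ± 1.64 to 50.4 ± 2.67 CPM (SD, n = 3 each), a log2 fold change of -0.77 (standard error 0.05). Cd200, the ligand of Cd200r1, fell by 0.23 on the log2 scale with TMM scaling (standard error 0.08, adjusted p = 0.0139, edgeR). It did not pass at -0.14 with library size scaling (adjusted p = 0.126, edgeR) or at -0.17 with upper quartile scaling (adjusted p = 0.0656, edgeR). Scaled to the T cell markers it was -0.83. Of the ligands of Havcr2, Ceacam1 fell with a log2 fold change of -0.97 (standard error 0.09), whereas Lgals9, the largest rise of the list, was at 0.28 (standard error 0.03) with TMM scaling and -0.32 when scaled to the T cell markers. Hmgb1, the other listed gene that rose with TMM scaling, was at 0.22, and at -0.38 when scaled to the T cell markers. Of the ligands of Tigit, Nectin2 fell with a log2 fold change of -0.83 (standard error 0.12), and Pvr was at 0.06 (standard error 0.07, adjusted p = 0.522, edgeR). Macrophages and dendritic cells express many of these ligands, and in the same libraries all 20 macrophage markers were lower, while of the 9 tested dendritic cell markers 6 were lower and 2 higher (Clec10a at 1.18 and Flt3 at 0.36 with TMM scaling). The part of those cells in the changes of the ligands was not tested.

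**Figure D4:**
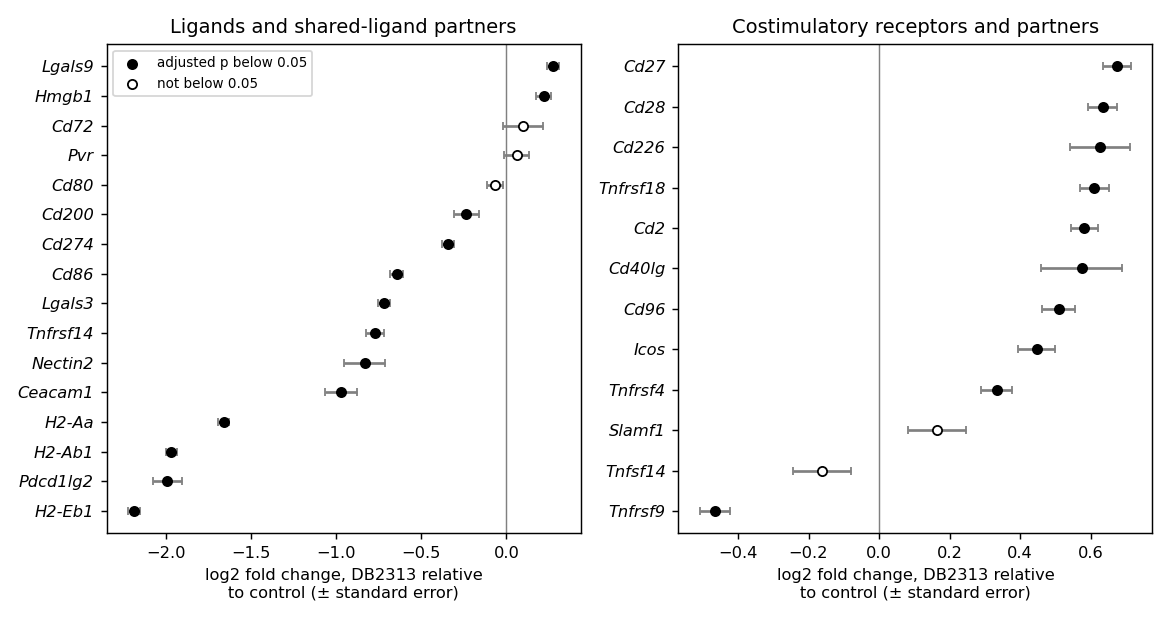
Log2 fold change, DB2313 relative to control, with TMM scaling (horizontal axis, bars are standard errors) of 16 tested ligand genes (left) and 12 costimulatory receptor and partner genes (right), filled where the adjusted p was below 0.05. Most ligands lay below 0 and most costimulatory receptors above 0 with this scaling, and none of the 12 on the right rose when scaled to the T cell markers.

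Costimulatory receptors and their partners, most but not all of which oppose the inhibitory receptors, were followed as a list of 12 genes. With TMM scaling 9 rose and 1 fell, at a median log2 fold change of 0.54, beside 20.8% and 24.6% of all tested genes. Scaled to the T cell markers none rose and 5 fell, beside 77.7% of all tested genes that fell. Cd27 had the largest rise (0.67, standard error 0.04) and Cd2 the highest level per kilobase in the control group, while Tnfrsf9, which encodes the activation-induced receptor 4-1BB, fell from 243.3 ± 9.39 to 176.2 ± 11.5 CPM (SD, n = 3 each), a log2 fold change of -0.47 (standard error 0.04). Cd28, which shares its ligands with Ctla4, was at 101.8, 97.3 and 97.6 CPM in the control libraries and 147.0, 157.7 and 155.7 CPM in the DB2313 libraries. The log2 ratio of Ctla4 to Cd28 counts was -1.08 ± 0.0569 (control) and -1.02 ± 0.140 (DB2313; SD, n = 3 each), and the groups overlapped (two-sided exact permutation test, p = 0.5). Cd226 competes with Tigit for Pvr and Nectin2. The log2 ratio of Tigit to Cd226 was -2.24 ± 0.207 and -2.03 ± 0.383 (SD, n = 3 each), which overlapped as well (two-sided exact permutation test, p = 0.4). Both inhibitory genes and their costimulatory partners rose with TMM scaling, and a change in either ratio was not detectable with 3 libraries per group.

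Regulatory T cells express Ctla4, Tigit and Pdcd1 at high levels, and their genes were counted although the study names CD8T cells. Cd4 was at 213.0 ± 2.51 CPM (control) and 294.0 ± 4.58 CPM (DB2313), and Foxp3, the defining transcription factor of regulatory T cells, had levels of 113.0 ± 1.84 and 139.3 ± 1.22 CPM (SD, n = 3 each). Of 7 CD4 and regulatory T cell genes, 4 rose and 3 fell with TMM scaling, beside 20.8% and 24.6% of all tested genes. The changes ran from Ikzf4 at -0.25 to Tnfrsf18 at 0.61. Scaled to the T cell markers none of the 7 rose and 6 fell, beside 77.7% of all tested genes that fell. Their summed level was 1236 to 1256 CPM in the control libraries and 1338 to 1344 CPM in the DB2313 libraries, with Il2ra the most abundant per kilobase and none at 0 in all libraries. Their part in the rises of Ctla4, Tigit and Pdcd1 was not tested.

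**Figure D5:**
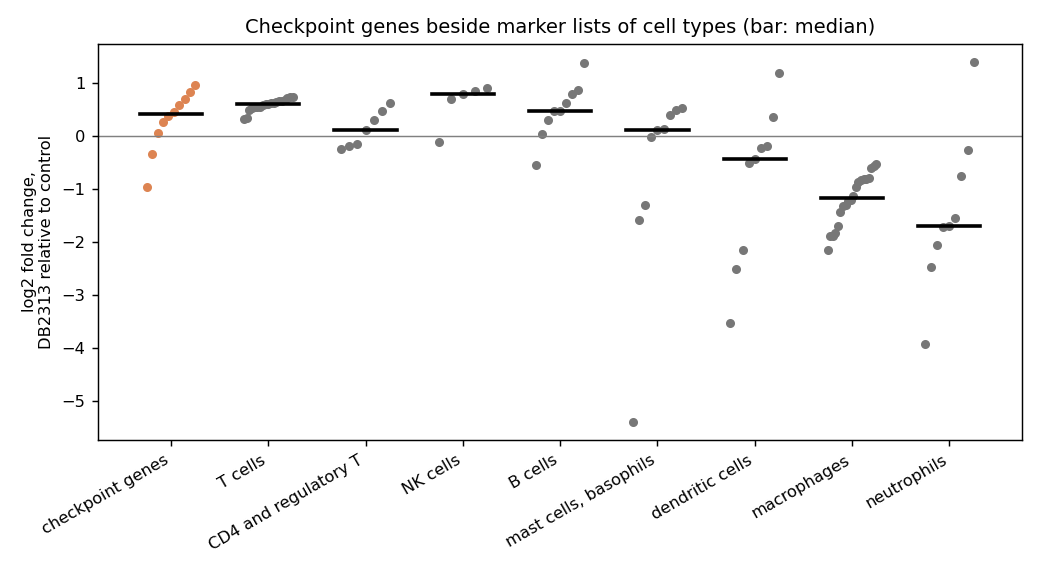
Log2 fold change, DB2313 relative to control, with TMM scaling (vertical axis) of the 10 checkpoint genes (orange) and of the tested markers of 8 kinds of cell (grey), with the median as a bar. The checkpoint genes spanned -0.97 to 0.97, while the 19 T cell markers lay between 0.32 and 0.74 and the 20 macrophage markers were all below 0.

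Transcription factors and surface markers linked to exhaustion and memory were examined beside Tox as a list of 24 genes. With TMM scaling 8 rose and 9 fell, at a median log2 fold change of 0.03, beside 20.8% and 24.6% of all tested genes. Scaled to the T cell markers Cxcr6 alone rose and 17 fell, beside 1.08% of all tested genes higher and 77.7% lower. Cxcr6, a chemokine receptor of tissue-resident T cells, had the largest rise, from 45.4 ± 3.09 to 79.9 ± 2.38 CPM (SD, n = 3 each), a log2 fold change of 0.81 (standard error 0.06). Eomes, Slamf6 and Tcf7 also rose with TMM scaling (0.64, 0.63 and 0.56), but were at 0.05, 0.04 and -0.04 when scaled to the T cell markers, and Tcf7 had the highest level per kilobase of the list in the control group. Nr4a3, which is induced by T cell receptor signalling, fell from 140.1, 141.5 and 137.3 CPM to 41.4, 40.0 and 43.6 CPM, a log2 fold change of -1.74 (standard error 0.05, adjusted p = 3.89e-19, edgeR). Nr4a1 was at 0.0012 (standard error 0.09) and Tox2 at -0.42 (standard error 0.29, adjusted p = 0.251, edgeR). Cd38 had the largest fall of the list (-1.91, standard error 0.10), followed by Nr4a3, Entpd1 (-1.19) and Irf4 (-1.17). In the same libraries all 20 macrophage markers were lower, at a median of -1.18. Which cells the falls of these genes came from was not tested.

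Signalling genes, not all of which act at inhibitory tails, were taken as a list of 23. Of these, 8 rose and 11 fell with TMM scaling, with a median of -0.11, beside 20.8% and 24.6% of all tested genes. When scaled to the T cell markers 1 rose and 21 fell, beside 1.08% of all tested genes higher and 77.7% lower. Ptpn6, which encodes the phosphatase SHP-1 of T cells and myeloid cells, was the most abundant per kilobase and fell from 340.2 ± 8.30 to 227.4 ± 6.94 CPM (SD, n = 3 each), a log2 fold change of -0.58 (standard error 0.04). Ptpn11, which encodes the phosphatase recruited by PD-1, was at -0.09 (standard error 0.04, adjusted p = 0.0898, edgeR). Sh2d1a, an adaptor of T and NK cells, had the largest rise (0.95, standard error 0.09), and Rnf128, which encodes a ubiquitin ligase linked to anergy, the largest fall (-1.78, standard error 0.07).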

How the data were processed

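RNA-seq of 3 control and 3 DB2313 samples was analysed, grouped by the labels. The authors deposited raw read counts per gene with gene lengths and coordinates. For alignment and counting the paper names LifeScope, while the submitters' processing notes list CASAVA 1.8, HISAT2 2.0.5 and featureCounts 1.5.0-p3. Build, annotation and strand setting are not given in the sources used here; 98.3% of genes shared with GENCODE M21 had its GRCm38 coordinates.

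From the counts, genes passing filterByExpr were TMM-normalized and tested with edgeR 4.0.16 in R 4.3.3 (glmQLFit, glmQLFTest, Benjamini-Hochberg adjustment). Standard errors were derived from the fitted change and its F statistic. On simulated counts edgeR called 183 of 200 changed genes and 2 unchanged ones among 14876. The simulation changed only these 200 genes, in random directions and without a shift in the mixture of cells. It therefore cannot judge the choice of scaling. DESeq2 1.42.0, other scalings and filters, a replicate block and leaving out each library were alternatives. Same-numbered samples did not deviate together (correlations from -0.0039 to 0.0187).

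Members and lists were chosen with earlier results of these data known. Named genes are all members, the largest called rise and fall and the most abundant gene per kilobase of each list, set ligands and partners, and the 3 genes closest in pattern to the members that rose and fell most. Cd3e, Cd68, Cd4, Foxp3, Icos, the MHC class II genes, Cd200r2, Cd200r3 and all other genes named outside this rule were chosen after their values were seen.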

Additional observations from a re-analysis of the deposited data

How the results depend on the processing

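Over 14 alternatives, 123 of 140 log2 fold changes of the 10 genes stayed on the same side of 0 and of the threshold. A call was lost in 9, gained in 3, and the sign turned in 5. The 5 that reversed did so with scaling to the T cell markers, at -0.23 in Lag3, -0.33 in Cd160, -0.54 in Btla, -0.15 in Cd5 and -0.0088 in Tox. With that scaling 1 of the 10 genes was higher and 5 were lower, beside 1.08% and 77.7% of all tested genes, whose median was -0.57. With an absolute log2 fold change above 1, 0 were higher and 0 lower, beside 1.37% and 5.3% of all tested genes with TMM scaling. DESeq2 and the replicate block each gave 5 higher and 2 lower genes, losing Lag3. Over all genes, DESeq2 called 2386 higher and 3196 lower of 27310, and the replicate block 2912 and 3525 of 14883. Library size and upper quartile scaling each gave 7 and 2, adding Cd160, with the median of all genes at 0.11 and 0.08. Of 14883 genes, 4931 were called higher and 2852 lower with library size scaling. These counts were 4319 and 3102 with upper quartile scaling, and 3096 and 3667 with TMM scaling. The replicate numbers are not known to pair the samples, and the block changed no other call among the 10 genes. In the 6 fits that each left out 1 library, 5 to 6 of the 10 genes were higher and 2 lower. Over all genes these fits called 2558 to 2894 higher and 3279 to 3516 lower, of 15217 to 15270 tested. Relative to the T cell markers of the same library, 1 to 2 of the 10 genes were higher and 3 to 5 lower without overlap with each library left out. With all libraries they were 1 and 3, beside 1.45% and 78.5% of all tested genes. The number of higher genes was 2 without DB2313 replicate 2 or DB2313 replicate 3, and that of lower genes 5 without DB2313 replicate 2 and 5 with Cd3e, Cd3d, Cd3g and Cd247 as the only markers. No cause was tested. The log2 ratio of Ctla4 to Cd28 differed by -0.01 to 0.13 and that of Tigit to Cd226 by 0.04 to 0.42 with each library left out. Depth limited Tigit most, with as few as 59 counts.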

Other observations

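Other receptors, most of them inhibitory and known from myeloid or NK cells, were followed as a list of 21 genes, of which 19 were tested. The list includes Cd200r2, Cd200r3 and Cd200r4, activating relatives of Cd200r1, and all of these fell with TMM scaling. With TMM scaling 3 rose and 14 fell (median log2 fold change -0.42), beside 20.8% and 24.6% of all tested genes. When scaled to the T cell markers 1 rose and 16 fell, beside 1.08% of all tested genes higher and 77.7% lower. Klrd1 and Klrc1, which encode the 2 chains of an inhibitory receptor of NK cells and activated CD8 T cells, rose with log2 fold changes of 0.81 (standard error 0.08) and 0.74 (standard error 0.15), Klrd1 being the largest rise of the list. Reads of Klrc1 could be shared with similar genes of its family. The third higher gene was Tgfbr2, at 0.20 with TMM scaling but -0.39 when scaled to the T cell markers. Siglece, a sialic acid receptor of myeloid cells, had the largest fall (-2.20, standard error 0.24), and Pilra (-1.32) and Pirb (-1.15) also fell. Vsir, which encodes the checkpoint protein VISTA, was the most abundant per kilobase in the control group and fell from 373.5 ± 6.41 to 311.8 ± 6.96 CPM (SD, n = 3 each), a log2 fold change of -0.26 (standard error 0.03).

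The profiles of Pdcd1 and Cd200r1 over the 6 libraries were set against those of other protein-coding genes whose mean level was at least theirs divided by 4, as the Euclidean distance between centred log2 CPM values. The 3 genes nearest to Pdcd1 among 10944 were Gdf15 (distance 0.139), Prtn3 (0.142) and Pf4 (0.165), with log2 fold changes from 0.91 to 1.02. The 3 nearest to Cd200r1 among 8714 were Plcg2 (0.0608), Ass1 (0.0708) and Myo5a (0.0724), with log2 fold changes from -0.92 to -0.98. Since the groups set most of each profile, these genes share mainly the size of their change.

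Among the marker lists, 8 of 9 neutrophil genes fell and 1 rose with TMM scaling, beside 24.6% and 20.8% of all tested genes. Ly6g had the largest fall (-3.92), S100a9, the most abundant per kilobase, was at -1.72 and Retnlg was at 1.39. The summed level of the 9 neutrophil genes was 1949 to 1962 CPM in the control libraries and 685.1 to 703.5 CPM in the DB2313 libraries. None of them was at 0 in all libraries. Among the dendritic cell genes Cd209a fell most (-3.54), Clec10a rose most (1.18) and Fscn1 was the most abundant per kilobase. With TMM scaling Ebf1 had the largest rise of the B cell genes (1.38) and Ncr1 that of the NK cell genes (0.91), and Cd79b and Klra7 were the most abundant of these lists per kilobase.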
